A study of Mus musculus with 6 samples.

Results

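Wnt ligands and their receptors were described in cultured mouse dermal fibroblasts with and without stabilized β-catenin. The members were chosen by name as the 19 Wnt genes, the 10 frizzled genes (Fzd1 to Fzd10) and the co-receptors Lrp5, Lrp6, Ror1, Ror2 and Ryk. They make 34 of the 41126 genes in the all-gene table, 19 ligands and 15 receptors or co-receptors.

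RNA was sequenced from 6 cultures of ventral dermal fibroblasts of mice at postnatal day 4, on a mixed CD1 and C57Bl6 background. The 3 gain-of-function (GOF) cultures carried Ctnnb1 Δex3/+ and received Adenovirus-Cre (AdCre), which removes exon 3 of Ctnnb1 and leaves a β-catenin protein that escapes degradation. The 3 Control cultures received Adenovirus-GFP (AdGFP). The labels call the Controls +/+, whereas the study's methods describe Control cells with the same unrecombined transgene. The treatment note of every sample reads AdCre at 366 to 500 infectious units per cell for 6 hours. The labels and methods thus leave the genotype and the treatment of the Controls partly in conflict. Stabilized β-catenin, Cre itself and any such difference in genotype or virus cannot be told apart in the comparison of the groups. The cultures came from 4 animals, and 2 animals gave a culture to each group. These were Control 0 with GOF 2, and Control 2 with GOF 0. The cells came from whole ventral skin and had been passaged before infection.

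Wnt proteins are secreted, lipid-modified signals that bind frizzled receptors on the cell surface. In the canonical branch a frizzled and Lrp5 or Lrp6 are engaged together, which keeps β-catenin from being degraded, and β-catenin then acts with Tcf/Lef factors on target genes. In the non-canonical branches, frizzleds, Ror1, Ror2 or Ryk pass the signal to the cell's planar polarity and calcium machinery. In skin, Wnt signals are known for their part in fibroblast identity, hair follicle formation and fibrosis.

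Tcf/Lef factors bind a short core, searched here as CTTTGAT and CTTTGAA on both strands of the RefSeq promoter windows of GRCm38.p6, which hold 250 bases before and 50 bases after a gene's start. Entries were found for 24 of the 34 members. The core was found in 2 of the 24, or 8.33%, against 9.88% of all 27025 genes with an entry. The members were thus close to the background share. The first 2 sequences below are the windows with the core, which is in capitals. The Wnt11 window belongs to 1 of 2 listed starts, the other without the core, and holds CTTTGAT on its minus strand (read as ATCAAAG), from 51 bases before the start. The Wnt5b window belongs to 1 of 3 listed starts and holds CTTTGAT from 71 bases before the start. The other sequences, without the core, belong to a ligand and a receptor that rose and to the ligand that fell. Each run is the 250 bases before the start, 5′ to 3′ on the gene's strand, at chr7:98834862-98835111 (plus strand) for Wnt11 and chr6:119449387-119449636 (minus) for Wnt5b. The others are at chr11:59306680-59306929 (plus) for Wnt9a, chr6:22287977-22288226 (plus) for Wnt16 and chr5:4758217-4758466 (minus) for Fzd1.
Wnt11: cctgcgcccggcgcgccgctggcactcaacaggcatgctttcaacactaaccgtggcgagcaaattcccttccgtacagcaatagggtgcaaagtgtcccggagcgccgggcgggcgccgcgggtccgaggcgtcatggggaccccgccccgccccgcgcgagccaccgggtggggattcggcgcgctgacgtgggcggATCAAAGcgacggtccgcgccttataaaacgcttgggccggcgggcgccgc
Wnt5b: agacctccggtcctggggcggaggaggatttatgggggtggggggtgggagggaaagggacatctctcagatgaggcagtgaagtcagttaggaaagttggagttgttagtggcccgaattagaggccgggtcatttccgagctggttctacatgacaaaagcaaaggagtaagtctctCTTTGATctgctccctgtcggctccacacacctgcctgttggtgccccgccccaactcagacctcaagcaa
Wnt9a: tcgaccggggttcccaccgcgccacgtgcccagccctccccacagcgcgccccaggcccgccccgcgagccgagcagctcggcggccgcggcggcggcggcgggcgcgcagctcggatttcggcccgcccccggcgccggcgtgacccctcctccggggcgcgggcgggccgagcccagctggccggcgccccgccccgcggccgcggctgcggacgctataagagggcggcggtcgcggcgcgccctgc
Wnt16: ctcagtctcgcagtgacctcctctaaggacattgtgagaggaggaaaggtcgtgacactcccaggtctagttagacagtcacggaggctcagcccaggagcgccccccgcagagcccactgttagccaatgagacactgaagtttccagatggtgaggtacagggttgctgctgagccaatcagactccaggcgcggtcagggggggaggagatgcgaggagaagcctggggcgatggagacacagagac
Fzd1: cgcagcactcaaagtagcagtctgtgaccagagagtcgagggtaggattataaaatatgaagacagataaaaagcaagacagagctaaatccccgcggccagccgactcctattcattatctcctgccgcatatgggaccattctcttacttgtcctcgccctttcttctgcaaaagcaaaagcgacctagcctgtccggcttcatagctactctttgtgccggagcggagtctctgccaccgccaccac

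The libraries held between 35980831 and 42834467 estimated fragments each. Axin2, a feedback target of β-catenin, had FPKM (fragments scaled by transcript length and library size) of 0.144, 0.136 and 0.177 in the Controls and 19.2, 14.4 and 18.7 in GOF. Values are given throughout in the order Control 0, 1 and 2 and GOF 0, 1 and 2. Ctnnb1 itself had 267 ± 16.3 and 263 ± 28.8 FPKM (SD, n = 3 each), and its exons were not analysed here. All 9 fibroblast markers were over 1 FPKM in every library, with sums of 2400 to 3190 in the Controls and 1100 to 1950 in GOF, and Col1a2 and Dcn fell. All 9 keratinocyte markers were under 1 FPKM in every library, with Dsg3 at 0 and sums of 0.419 to 0.63 in the Controls and 0.507 to 0.575 in GOF. Sums of 6 skeletal muscle markers were 23.3 to 27.4 and 138 to 173 FPKM, through Acta1. The sums of 6 endothelial markers were 4.37 to 4.57 and 2.71 to 6.6, with Kdr higher and Tek lower, and those of 6 macrophage markers 13.3 to 22.7 and 10.3 to 28.7, with Csf1r higher. Sums of 6 melanocyte and Schwann cell markers were 6.88 to 7.3 and 5.06 to 6.37, and of 6 pericyte and smooth muscle markers 14.8 to 24.8 and 17.6 to 33.6. The part of other cells in the values below was not tested, and in bulk RNA fewer cells of a type and less RNA per cell cannot be told apart.

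Most of the Wnt ligands that these fibroblasts expressed rose in GOF, and 1 fell. Of the 8 ligands with enough fragments to test, Wnt2, Wnt2b, Wnt4, Wnt5a, Wnt9a and Wnt11 rose 3.14-fold to 9.0-fold, and Wnt16 fell 5.81-fold. The receptors moved both ways. Of 14 tested, Fzd1, Fzd6 and Fzd10 rose, and Fzd4, Fzd5, Fzd8 and Lrp5 fell. A gene was called where edgeR's quasi-likelihood test on the estimated fragments gave an adjusted p under 0.05, with Benjamini-Hochberg adjustment over all 15462 genes tested, and a fold change over 2. Of the 22 members tested, 9 were called higher and 5 lower. Over all genes tested, 6.69% were called higher, 5.64% lower and 12.3% in either direction. The median log2 fold change was 0.23 over the tested members, 2.19 over the ligands and -0.21 over the receptors, against -0.02 over all genes tested. FPKM did not overlap between the groups for 16 of the 22 members, against 39.5% of all genes. GOF was above the Controls for 10 of them and below for 6, against 20.3% and 19.2% of all genes. The exact permutation test on 3 against 3 libraries cannot give a two-sided p below 0.1, and the 16 members that did not overlap all had that value. Of the 22, 21 had at least 10 fragments in every library, and Fzd10 passed the filter on low counts through GOF alone. Its place among the 9 called higher and the 10 above the Controls thus adds nothing to the comparison with all genes. The same holds for its place in the medians over the tested members and over the receptors, which include it.

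**Figure D1:**
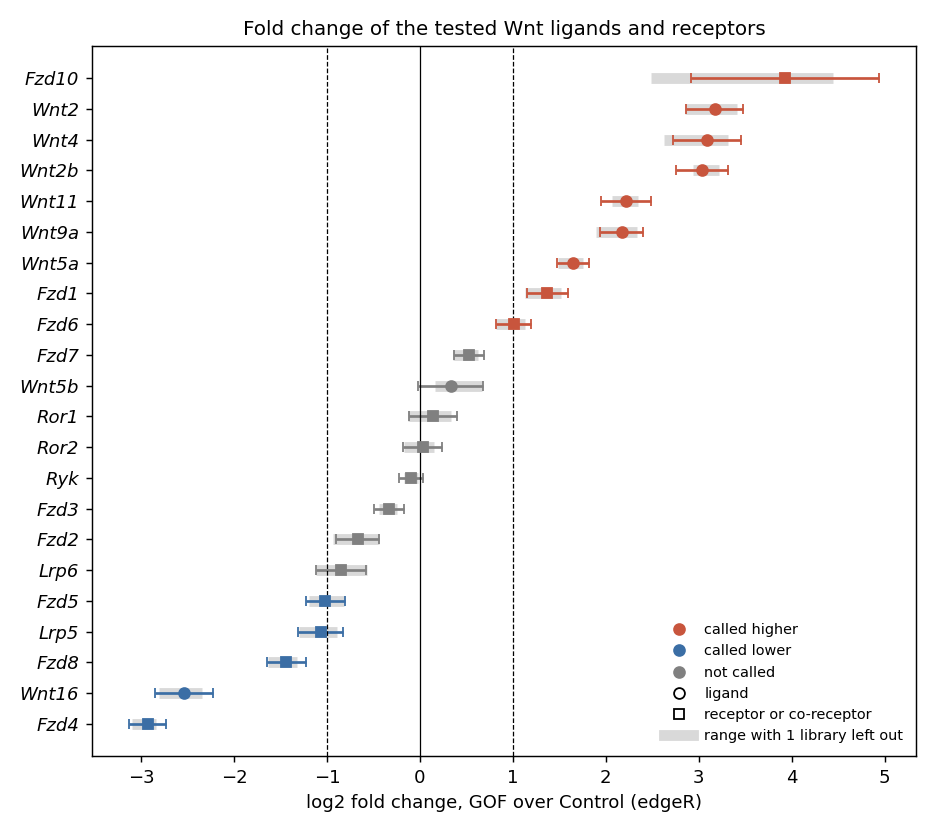
Log2 fold change (horizontal axis, GOF over Control) of the 22 tested members from edgeR, with bars of 1 standard error; circles are ligands, squares are receptors or co-receptors, and grey bands span the values with 1 library left out. Dashed lines mark a fold of 2; the 6 ligands called higher lie from 1.65 (Wnt5a) to 3.17 (Wnt2), and Fzd4 is lowest at -2.93.

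Among the ligands usually placed in the canonical branch, Wnt2 and Wnt2b were measured well. Wnt2, a mesenchymal ligand known for its part in lung formation, had 3.14, 2.0 and 1.88 FPKM in the Controls and 15.4, 18.3 and 29.3 in GOF. Every GOF library was above every Control, with a log2 fold change of 3.17 (SE 0.31, adjusted p = 0.000748). Within animals, the log2 ratio of GOF to Control FPKM was 3.04 in the animal of Control 2 and GOF 0, and 3.22 in that of Control 0 and GOF 2. Its gene lies on the minus strand at chr6:17988940-18030585 (GRCm38).

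Wnt2b, the closest relative of Wnt2, was far less abundant. The Controls had 0.178, 0.191 and 0.266 FPKM and GOF had 2.04, 2.02 and 1.29. The GOF libraries stood apart from the Controls again, with a log2 fold change of 3.04 (SE 0.28, adjusted p = 0.000587). The fragments behind these values were 24, 31 and 41 in the Controls and 317, 293 and 204 in GOF.

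The non-canonical ligands were led by Wnt5a, which signals through Ror2 and is known for its part in limb outgrowth and cell migration. It was the most abundant ligand in every library. Its FPKM were 12.0, 14.9 and 15.8 in the Controls and 56.5, 40.7 and 44.8 in GOF, again without overlap. Its log2 fold change of 1.65 (SE 0.17, adjusted p = 0.000962) was the smallest of the 6 ligands that rose. Within animals the log2 ratios were 1.83 and 1.90. An antisense gene, Gm2670, overlaps 4.6% of the exon bases of Wnt5a. It had 38, 86 and 56 fragments in the Controls and 196, 151 and 152 in GOF. Whether counting used the strand is not given in the sources used here.

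Wnt4, a ligand of kidney and gonad formation that is also made in skin, had 0.183, 0.207 and 0.235 FPKM in the Controls and 1.45, 1.23 and 2.80 in GOF. All GOF libraries were above the Controls, and GOF 2 was the highest. In the fit Wnt4 had a log2 fold change of 3.09 (SE 0.37, adjusted p = 0.0016), with log2 ratios within animals of 2.63 and 3.94.

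Wnt11, a ligand of the polarity branch, had 0.559, 0.606 and 0.615 FPKM in the Controls and 1.93, 2.72 and 2.55 in GOF. The 3 Controls were close together and all GOF libraries were above them, with a log2 fold change of 2.22 (SE 0.27, adjusted p = 0.00181). One of its promoter windows holds the Tcf/Lef core shown above, as does one of Wnt5b, whose values overlapped between the groups. Wnt5b, the near relative of Wnt5a, had 0.188, 0.175 and 0.347 FPKM in the Controls and 0.326, 0.338 and 0.245 in GOF. Its log2 fold change was 0.33 (SE 0.35, adjusted p = 0.542), on 15 to 31 fragments a library.

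Wnt9a and Wnt16 have been assigned to either branch in different tissues. Wnt9a, known from joint formation, had 2.44, 2.36 and 2.69 FPKM in the Controls and 10.3, 9.02 and 14.9 in GOF. The groups did not overlap, and the log2 fold change was 2.17 (SE 0.23, adjusted p = 0.000994). Its gene, at chr11:59306928-59333552 on the plus strand, starts 16175 bases from that of Wnt3a on the opposite strand. Wnt3a never exceeded 0.00845 FPKM, so the pair of neighbours did not share a level.

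Wnt16, a ligand known for its effect on bone, was the ligand that fell. It had 6.16, 8.91 and 10.7 FPKM in the Controls and 1.97, 1.15 and 1.34 in GOF. Even the lowest Control was above the highest GOF library. The log2 fold change was -2.54 (SE 0.31, adjusted p = 0.00175), and the log2 ratios within animals were -2.44 and -2.20. The gene lies on the plus strand at chr6:22288227-22298522.

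**Figure D2:**
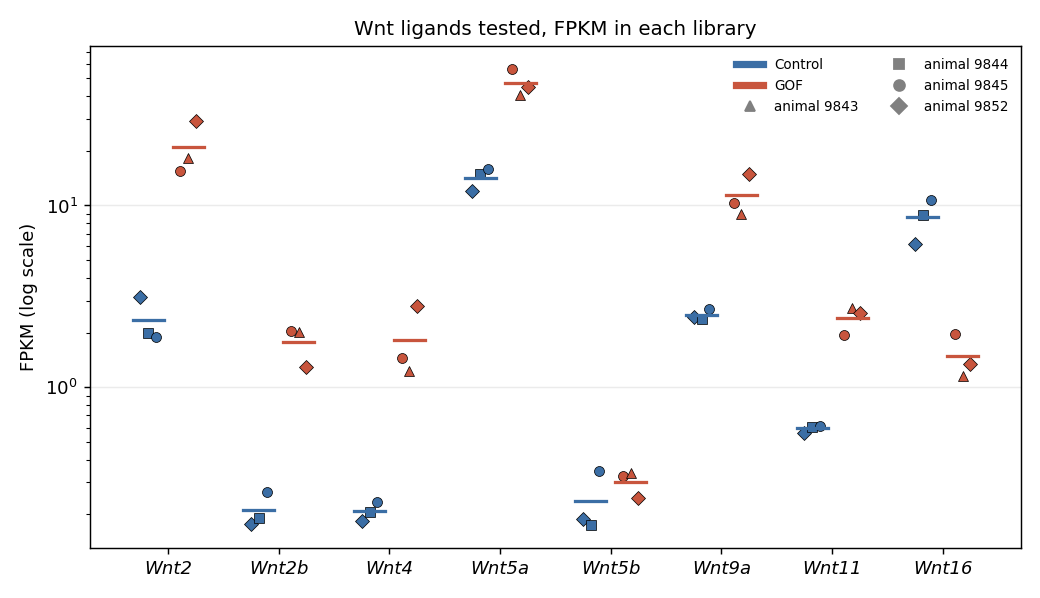
FPKM (log axis) of the 8 tested Wnt ligands in each library, Controls in blue and GOF in red, with 1 symbol shape for each animal and a line at the group mean. Wnt16 is the ligand whose GOF libraries (1.15 to 1.97) all lie below the Controls (6.16 to 10.7), and Wnt5b is the one whose groups overlap.

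The other 11 ligands were at or near the floor of detection and were not tested. Wnt1 had 0 fragments in every library, and none of Wnt3a, Wnt6, Wnt8a, Wnt8b and Wnt9b had more than 2 in any library. Wnt3, a canonical ligand of early embryos and skin, had 0 fragments in each Control and 11, 3 and 12 in GOF, which is at least 2.67-fold higher against a floor of 3 fragments per library. Wnt7a had 2, 0 and 0 fragments in the Controls and 11, 2 and 24 in GOF. Wnt10b, which restrains fat cell formation, had 5, 8 and 3 against 11, 5 and 27. The ranges of both Wnt7a and Wnt10b overlapped or met between the groups. Wnt7b had 0, 1 and 1 against 1, 2 and 8, and Wnt10a 0, 1 and 0 against 3 in each GOF library. Among the 12 untested members, Fzd9 included, no FPKM exceeded 0.407. A difference in these genes was for the most part not detectable at this depth. Without the filter on low counts, Wnt3 and Wnt7a were also called higher by edgeR, with adjusted p of 0.0139 and 0.0414, and by DESeq2, with adjusted p of 0.00551 and 0.0332.

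The make-up of the ligand pool differed with these changes. FPKM is per length, so levels can be set side by side across genes. The FPKM of all 19 ligands summed to 24.9, 29.5 and 32.6 in the Controls and 90.3, 75.7 and 98.2 in GOF. Wnt5a held 49.1% ± 1.32 (SD, n = 3) of the sum in the Controls and 54.0% ± 8.49 in GOF, a difference within the spread of the GOF libraries. Wnt16 held 29.2% ± 4.12 in the Controls, next after Wnt5a, and 1.69% ± 0.431 in GOF. Wnt2 held 8.37% ± 3.69 and 23.7% ± 6.42, and took second place in GOF. Wnt9a held 8.67% ± 0.965 and 12.8% ± 2.05. Wnt2 and Wnt9a had similar levels in the Controls, where their order differed between libraries. The ratio of Wnt2 to Wnt16 FPKM was 0.510, 0.224 and 0.176 in the Controls and 7.83, 16.0 and 21.8 in GOF, so the order of these ligands was the opposite in every GOF library.

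By branch, canonical ligands held 9.40% ± 3.71 (SD, n = 3) of the summed ligand FPKM in the Controls and 26.1% ± 6.09 in GOF. Non-canonical ligands held 52.7% ± 1.11 and 59.1% ± 7.7, and those of either branch 37.9% ± 3.25 and 14.8% ± 1.98. In the Controls, 4 ligands had a mean of at least 1 FPKM (Wnt2, Wnt5a, Wnt9a and Wnt16). In GOF there were 7, since Wnt2b, Wnt4 and Wnt11 were over 1 as well and Wnt16 stayed above it.

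**Figure D3:**
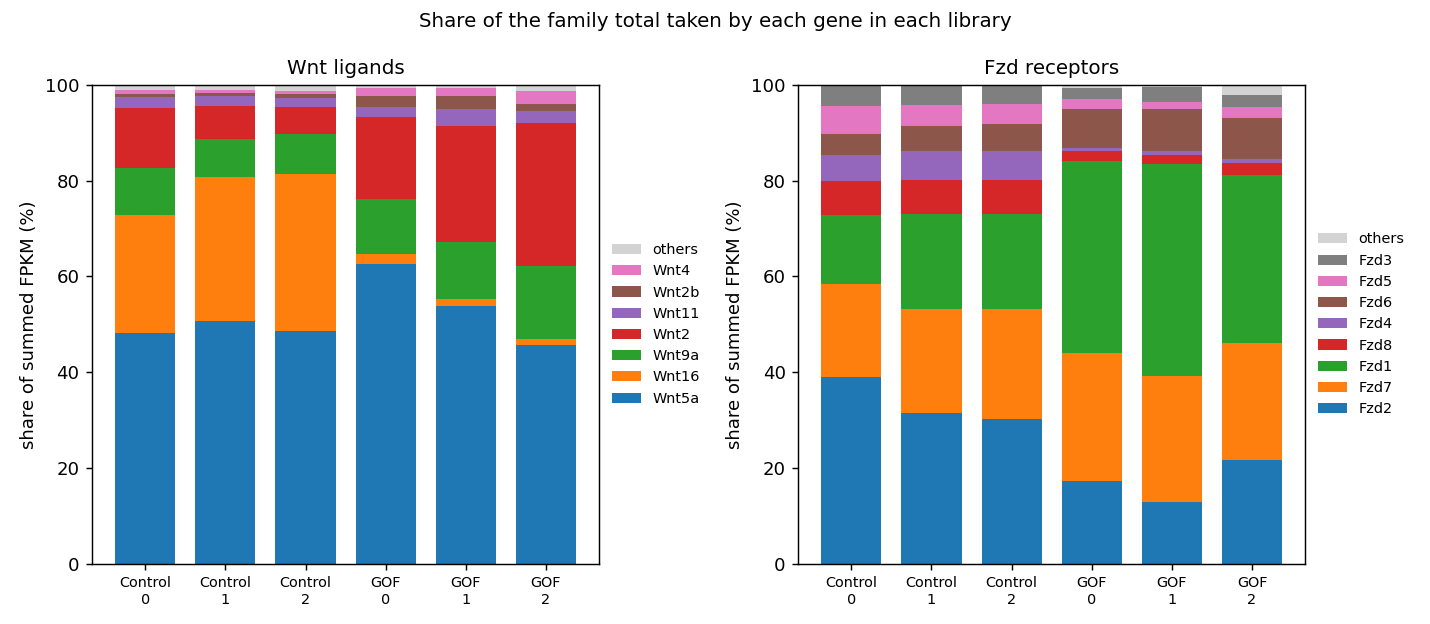
Share of the summed FPKM (percent) taken by each gene in each library, for the Wnt ligands on the left and the Fzd receptors on the right, with low genes joined as others. Wnt16 shrinks from 24.7% to 32.8% in the Controls to 1.37% to 2.18% in GOF, and Fzd1 grows from 14.3% to 19.7% to 35.0% to 44.2%.

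Frizzled receptors differed more in kind than in total. Their FPKM summed to 78.9, 106 and 105 in the Controls and 119, 111 and 121 in GOF. The frizzleds fall into groups of related sequence, and Fzd1, Fzd2 and Fzd7 form the group that led in these cells. Fzd1 had 11.3, 20.9 and 20.7 FPKM in the Controls and 48.0, 49.0 and 42.2 in GOF. The groups were far apart although Control 0 was low. Fzd1 had a log2 fold change of 1.37 (SE 0.22, adjusted p = 0.00532), with log2 ratios within animals of 1.21 and 1.91.

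Fzd2 went the other way in level without passing the test. It had 30.9, 33.4 and 31.9 FPKM in the Controls and 20.5, 14.4 and 26.1 in GOF. The GOF libraries were all below the Controls but spread widely, and the log2 fold change was -0.67 (SE 0.23, adjusted p = 0.0835). Fzd7 had 15.3, 23.4 and 24.2 FPKM in the Controls and 32.0, 29.2 and 29.6 in GOF, with a log2 fold change of 0.53 (SE 0.16, adjusted p = 0.0572). Fzd2 was the most abundant frizzled in each Control, and Fzd1 in each GOF library. The ratio of Fzd1 to Fzd2 FPKM was 0.364, 0.627 and 0.650 in the Controls and 2.34, 3.40 and 1.62 in GOF. The group as a whole held 72.9% ± 0.0606 (SD, n = 3) of the frizzled FPKM in the Controls and 83.0% ± 1.55 in GOF.

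Fzd4, a receptor of blood vessel formation in the eye that also binds the non-Wnt ligand norrin, fell more than any other tested member. It had 4.23, 6.36 and 6.52 FPKM in the Controls and 0.689, 0.776 and 0.774 in GOF. The GOF libraries were tightly grouped, all far below the Controls. The log2 fold change was -2.93 (SE 0.20, adjusted p = 0.000252), a 7.65-fold difference, and the log2 ratios within animals were -3.24 and -2.45. The gene lies at chr7:89404355-89413134 on the plus strand. Its share of the frizzled FPKM was 5.84% ± 0.426 in the Controls and 0.640% ± 0.0618 in GOF (SD, n = 3).

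Fzd10, of the same sequence group as Fzd4 and Fzd9, was called in the opposite direction but on uneven libraries. It had 0.113, 0.0471 and 0.0506 FPKM in the Controls and 0.666, 0.154 and 2.41 in GOF. GOF 2 alone held 301 fragments, against 79 and 17 in the other GOF libraries and 12, 6 and 6 in the Controls. The log2 fold change was 3.93 (SE 1.01, adjusted p = 0.0305). Without GOF 2 it was 2.49 (adjusted p = 0.0564), and the call was also lost without Control 0, Control 1, Control 2 or GOF 0, with adjusted p from 0.0524 to 0.1. Fzd9 had 3, 8 and 2 fragments in the Controls and 12, 12 and 10 in GOF and was not tested.

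Fzd5 and Fzd8, the pair of related receptors best known from gut and eye, both fell. Fzd8 had 5.62, 7.71 and 7.46 FPKM in the Controls and 2.40, 2.18 and 3.14 in GOF. All GOF libraries were below the Controls, with a log2 fold change of -1.44 (SE 0.21, adjusted p = 0.00345). Fzd5 had 4.63, 4.70 and 4.42 FPKM in the Controls and 2.42, 1.60 and 2.79 in GOF, with no overlap. Its log2 fold change was -1.02 (SE 0.21, adjusted p = 0.0124), just past a fold of 2. A gene on the opposite strand, Gm38058, overlaps 17.8% of its exon bases and was not counted in the table. With the animal as a block the log2 fold change of Fzd5 was -0.79 (adjusted p = 0.0168), and without Control 1 or GOF 1 it was -0.99 and -0.82, so the call was lost. Together the pair held 12.0% ± 0.904 of the frizzled FPKM in the Controls and 4.12% ± 0.751 in GOF (SD, n = 3).

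Fzd6, a receptor of hair and planar polarity, had 3.50, 5.58 and 5.81 FPKM in the Controls and 9.83, 9.84 and 10.3 in GOF. The 3 GOF libraries lay close together, and the log2 fold change was 1.01 (SE 0.19, adjusted p = 0.00899). The fold lay at the threshold of 2. Without Control 0 the log2 fold change was 0.82, without GOF 1 it was 1.0, and with library totals or upper-quartile scaling it was 0.96 and 0.95, which lost the call. Fzd3, its relative with a part in axon guidance, had 3.30, 4.29 and 4.31 FPKM in the Controls and 2.81, 3.41 and 3.13 in GOF. The groups of Fzd3 overlapped, with a log2 fold change of -0.33 (SE 0.16, adjusted p = 0.2).

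**Figure D4:**
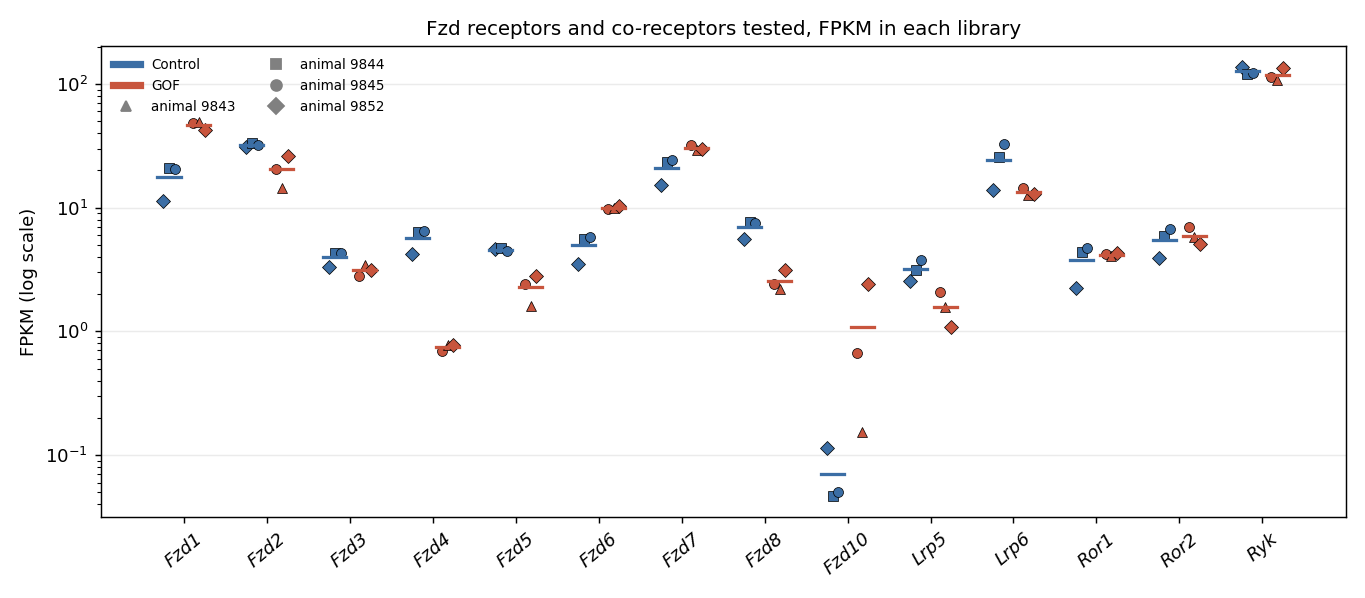
FPKM (log axis) of the 14 tested receptors and co-receptors in each library, Controls in blue and GOF in red, with 1 symbol shape for each animal and a line at the group mean. Fzd4 shows the widest gap below the Controls, Fzd10 is spread from 0.154 to 2.41 in GOF, and Ryk is the most abundant in every library, at 107 to 136.

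The co-receptors of the canonical branch were both lower on average in GOF. Lrp5 had 2.57, 3.16 and 3.79 FPKM in the Controls and 2.06, 1.57 and 1.08 in GOF. The groups did not overlap but lay close, and the log2 fold change was -1.07 (SE 0.24, adjusted p = 0.0184). That call was lost without Control 1, Control 2, GOF 1 or GOF 2, where the adjusted p was 0.0622, 0.0643 and 0.0612 and, for GOF 2, the log2 fold change was -0.89 (adjusted p = 0.0374).

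Lrp6 was the more abundant of the pair in every library. It had 14, 25.8 and 32.9 FPKM in the Controls and 14.5, 12.7 and 12.9 in GOF. Control 0 lay within the GOF range, while Control 1 and Control 2 were above it. The log2 fold change was -0.85 (SE 0.27, adjusted p = 0.0644). Without Control 0 it was -1.12 (adjusted p = 0.00325), which is past the threshold, so Control 0 decided that call. The log2 ratio within animals was -1.18 for Control 2 and GOF 0 but -0.12 for Control 0 and GOF 2.

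The tyrosine kinase type receptors, which bind Wnt5a among others, did not pass the test. Ryk had 136, 120 and 122 FPKM in the Controls and 113, 107 and 135 in GOF, with a log2 fold change of -0.10 (SE 0.13, adjusted p = 0.627). Ror1 had 2.22, 4.40 and 4.73 FPKM in the Controls and 4.20, 4.04 and 4.27 in GOF, with a log2 fold change of 0.14 (SE 0.26, adjusted p = 0.741). Ror2 had 3.94, 5.85 and 6.74 FPKM in the Controls and 6.94, 5.80 and 5.04 in GOF, with a log2 fold change of 0.03 (SE 0.21, adjusted p = 0.945). The groups overlapped for each of the 3 genes, and the sign of Ror1 turned without Control 0. That of Ror2 turned without Control 0 or GOF 0 and with library totals or upper-quartile scaling.

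Control 0 lay at an end of the Control range for most genes, and for these members mostly at the low end. It was the lowest Control for 16 of the 22 tested members and the highest for 3, against 44.0% and 41.8% of all genes tested. Control 2 was the highest for 15, against 40.3% of all genes. Within the 2 animals with a culture in each group, all 14 called members kept the direction of the fit in both animals. The FPKM of these 14 did not overlap between the groups, so any GOF and Control library set together would give that direction. The agreement within animals thus adds nothing to the calls. The calls of Wnt2, Wnt2b, Wnt4, Wnt5a, Wnt9a, Wnt11, Wnt16, Fzd1, Fzd4 and Fzd8 were kept in each of the 15 alternative settings tried and in the fit with a correlation within animal.

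Other genes of the pathway, 43 on 5 lists, were called in both directions as well. Of 36 tested, 7 were called higher (19.4%) and 6 lower (16.7%), against 6.69% and 5.64% of all genes tested. Of the 7 called higher, Notum, Rnf43, Dkk1 and Wif1 had under 10 fragments in every Control and passed the filter on low counts through GOF alone, so these 4 had to differ and add nothing to the share. Without them 3 calls higher remain, so the 19.4% is not to be read as an excess over 6.69%. Genes that act on the Wnt protein itself are described before the other lists. Notum, which removes the lipid from secreted Wnt, rose from 0.0977 ± 0.0393 to 1.69 ± 0.880 FPKM (SD, n = 3; log2 fold change 4.35, adjusted p = 0.0028). Trabd2b, a protease that cleaves Wnts, rose from 0.598 ± 0.0691 to 1.25 ± 0.305 FPKM (1.04, adjusted p = 0.0132). Wls, the carrier that brings Wnts to the cell surface, had 180 ± 4.51 and 264 ± 58.6 FPKM (SD, n = 3). With a log2 fold change of 0.55 (adjusted p = 0.0342) it stayed under a fold of 2.

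Of 7 tested genes that set how long receptors stay at the surface, 3 fell (42.9%) and 1 rose (14.3%). Over all genes tested, 5.64% were called lower and 6.69% higher. R-spondins and their receptor Lgr4 protect frizzleds from the ligases Rnf43 and Znrf3. Rspo3 fell from 8.45 ± 1.13 to 0.849 ± 0.262 FPKM (SD, n = 3; log2 fold change -3.30, adjusted p = 0.000452). Rspo2 fell from 2.67 ± 0.470 to 0.227 ± 0.126 (-3.57, adjusted p = 0.000945), and Lgr4 from 21.8 ± 1.54 to 7.39 ± 0.653 (-1.54, adjusted p = 0.000347). Not all of the list fell. Lgr5 had means of 14.8 and 14.1 FPKM, Lgr6 0.193 and 0.585, and Znrf3 1.26 and 1.86. Their log2 fold changes were -0.05, 0.93 and 0.56, and none was called. Rnf43, which marks frizzleds for removal, rose from 0.0294 ± 0.0213 to 0.553 ± 0.131 (4.29, adjusted p = 0.00178). It had 4, 7 and 1 fragments in the Controls and passed the filter on low counts through GOF alone, so its call adds nothing to the share.

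Of 8 secreted antagonists tested, 3 were called higher (37.5%) and 1 lower (12.5%), against 6.69% and 5.64% of all genes tested. However, 2 of the 3, Wif1 and Dkk1, passed the filter through GOF alone, which leaves 1 other call higher. Wif1, which binds Wnts, rose from 0.0840 ± 0.0233 to 1.75 ± 1.26 FPKM (SD, n = 3; log2 fold change 4.52, adjusted p = 0.00212). Dkk2, a ligand of Lrp5 and Lrp6, rose from 16.2 ± 4.43 to 58.6 ± 23.1 (1.83, adjusted p = 0.0037). Dkk1, of the same family, was called on 1, 2 and 0 fragments in the Controls against 34, 30 and 69 in GOF (adjusted p = 0.00252). Sfrp4, a decoy with a frizzled domain, fell from 4.18 ± 1.16 to 0.660 ± 0.269 (-2.68, adjusted p = 0.00202).

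Of 5 accessory receptors tested, 1 was called lower (20.0%) and none higher, against 5.64% and 6.69% of all genes tested. Reck, a partner of Wnt7 signalling in vessels, fell from 10.4 ± 2.81 to 4.90 ± 0.675 FPKM (SD, n = 3, log2 fold change -1.10, adjusted p = 0.0121). The other accessory receptors tested were not called, with log2 fold changes of 0.11 to 0.41. Of 12 cytoplasmic and planar polarity transducers tested, 1 was called higher and 1 lower (8.33% each), near the shares over all genes. Prickle1 rose from 6.50 ± 2.28 to 24.0 ± 5.66 (1.86, adjusted p = 0.00504), and Vangl2 fell from 1.22 ± 0.0629 to 0.702 ± 0.0919 (-1.07, adjusted p = 0.0134). Both of these genes act in planar polarity.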

How the data were processed

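Stranded, paired-end libraries (100 bp reads) were made from total RNA, and per the authors' notes TopHat aligned them to mm10 before quantification by Cuffdiff. Expected counts are the authors' unscaled Cuffdiff fragments per gene, deposited for each library. The deposited FPKM values were scaled by the authors' Cuffdiff run for transcript length and between libraries. Library groups came from the labels. The lncRNA table and 2 further columns of scaled values were not used, and 32 of 41126 genes with a failed estimate were left out. Identifiers were matched to GENCODE M21 (97.9%). Counts, 4.95% of them not whole, were rounded.

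The whole table was fitted in R 4.3.3 with edgeR 4.0.16 (TMM scaling, filterByExpr, quasi-likelihood test, group only), and p-values were adjusted by Benjamini-Hochberg over the 15462 genes tested. A call needed an adjusted p under 0.05 and a fold over 2. The procedure was tested on simulated data. DESeq2 1.42.0, limma 3.58.1 on log2(FPKM + 1) and log2(FPKM + 0.1), other scalings and filters, blocks and leaving out each library were tried. The log2 ratios within animals and the shares use FPKM. Samples with the same animal number in their titles deviated together from their group means (correlations of 0.46 and 0.408), so the animal pairs those libraries. The members, gene lists and classes were chosen with earlier results of these data known. All 34 members are named, with full values for those called or with a mean of at least 1 FPKM in a group, and from each other list up to 3 called genes with the smallest adjusted p. Rnf43, Dkk2, Wls, Lgr5, Lgr6 and Znrf3 fall outside that rule and were added after their values were seen. Sequences were taken from RefSeq on GRCm38.p6, and gene coordinates from GENCODE M21 on GRCm38. Depth limits genes with few fragments, and p-values measure the spread between cultures of 4 animals. A comparison of the members' protein sequences was not run.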

Additional observations from a re-analysis of the deposited data

How the results depend on the processing

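The number of ligands called higher (6) and lower (1) stayed within 1.5 times in each alternative. The median log2 fold change of the tested members (0.23, over 22 members) was 0.92 with DESeq2 and 1.01 with no filter on low counts. Both of these fits took in 33 members. It was 0.08 over 20 members where 3 libraries had to reach 1 FPKM, and 0.13 over 22 with limma on log2(FPKM + 1). With 1 library left out it ran from 0.21 (without GOF 0, 22 members) to 0.84 (without Control 1, 26 members). Most of these medians thus cover different sets of members, and none was taken over a fixed set. With limma on log2(FPKM + 1), 1 receptor was called higher (3 in the report), 2 lower (4), and 4 other pathway genes higher (7), while over all genes 481 were called higher and 396 lower against 1034 and 872. With that FPKM filter, 2 other pathway genes were called higher, and over all genes 639 higher. With 1 library left out, receptors called higher ran from 1 (without Control 0) to 2, receptors called lower from 2 (without Control 1 or GOF 1) to 5, ligands called higher from 6 to 8, and other pathway genes higher from 6 to 8 and lower from 4 to 6. The added ligands were Wnt3 (without Control 0, Control 2 or GOF 1) and Wnt7a (without GOF 1). Wnt3 had 0 fragments in every Control and Wnt7a 2, 0 and 0, so they passed the filter through GOF alone and had to be higher. The pseudocount lowers the folds of low genes by construction; the other causes were not tested.

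Ror2 turned to -0.03 with library totals and -0.03 with upper-quartile scaling, to -0.17 without Control 0 and -0.08 without GOF 0, and Ror1 to -0.13 without Control 0. With 1 library left out, Ror2 ran from -0.17 to 0.15 and Ror1 from -0.13 to 0.33, and none of these values passed the test. Of 328 values of single members under the 15 alternatives, 298 kept direction and call, 24 lost the call, 1 gained it and 5 turned.

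The replicate numbers in the labels did not pair the samples: libraries with the same number had deviation correlations of -0.41, 0.054 and -0.441. With that number as a block, 6 ligands were called higher and 1 lower, 2 receptors higher and 3 lower, the median was 0.29, and 6 other pathway genes were called higher and 5 lower; Fzd10 (adjusted p = 0.0512) and Lrp5 (adjusted p = 0.0636) lost their calls. With a block for the animal (1 residual degree of freedom) the counts were 6 and 1, 3 and 3, the median 0.27, and 7 and 5. A voom fit with an estimated correlation within animal (0.476), chosen after the data were seen, gave 6 and 1, 3 and 3, 0.27, and 7 and 6. The pairing by animal changed no call other than that of Fzd5 among the members.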
